A study of Mus musculus with 4 samples.

Results

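Histone genes were read on 84 of the 34472 probe sets of an Affymetrix mouse expression array. A probe set was taken as a member when every gene that the platform annotation pairs with it was a core or linker histone, by its current RefSeq symbol or by an older name of the Hist1h to Hist4h, H2af, H3f or H1f form. Of the 84, 46 were paired with 1 gene and named 43 distinct genes, and 38 were shared among histones, with up to 13 genes on 1 probe set. Together they covered 82 distinct genes. A further 9 probe sets that paired a histone with other gene models were left out, among them all 7 of the H3.3 genes H3f3a and H3f3b. Members that share genes read overlapping signal, and 3 pairs of members had equal values on all arrays, so members are not replicates of one another.

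Histones package DNA: H2A, H2B, H3 and H4 form the nucleosome core, and linker histone H1 binds the DNA where it enters and leaves. Most are encoded by replication-dependent genes that lie in clusters and are expressed in S phase, and their mRNAs end in a stem-loop in place of a poly(A) tail. Variant histones such as H2A.Z, macroH2A and H3.3 are encoded by genes outside the clusters, expressed through the cell cycle and mostly polyadenylated. Here 70 members were of cluster genes and 14 of variant genes.

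RNA came from LSK cells, the Lin-Sca1+Kit+ fraction of bone marrow that contains stem and multipotent progenitor cells, of 4-month-old male mice of strain C57/B6. There was 1 array for each of 4 groups: Ctrl and AMKO at day 0, called basal, and the same genotypes 8 days after an injection of 150 mg/kg 5-fluorouracil (5FU), a nucleobase analog that blocks thymidylate synthesis. The labels do not expand the name AMKO, and they do not say how many mice an array stands for or whether the basal mice received a mock injection. The series design gives the 5FU dose as a way to activate stem cells. With 1 array per group there is no replicate error, so single-array comparisons carry no test.

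The promoters of 6 cluster genes are shown. All but H3c2 are of genes whose own probe sets carry differences described further on. H3c2 is shown as an H3 gene, and no difference can be credited to it alone. RefSeq promoter entries (GRCm38.p6) matched 73 of the 82 genes, and the counts given after the sequences are over all entries of histone genes, including H3.3 and a few others without a member. Each sequence is the 150 bases before the annotated start, read 5′ to 3′ on the gene's strand, and capitals mark the motifs searched on either strand. H2ac15 (chr13:21753913-21754062, minus strand), H1f5 (chr13:21780626-21780775, minus strand) and H4c9 (chr13:22041363-22041512, minus strand) were the single-gene probe sets with the highest mean 5FU difference in their classes, H2bc12 (chr13:22035671-22035820, plus strand) was the highest of H2B, H3c2 (chr13:23752195-23752344, plus strand) is one of 8 H3 genes read together, and H2aw (chr11:58954535-58954684, plus strand) differed most between genotypes at day 8.
H2ac15: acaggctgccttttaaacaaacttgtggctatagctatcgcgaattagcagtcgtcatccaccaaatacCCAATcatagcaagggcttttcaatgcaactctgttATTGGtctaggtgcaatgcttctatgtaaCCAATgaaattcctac
H1f5: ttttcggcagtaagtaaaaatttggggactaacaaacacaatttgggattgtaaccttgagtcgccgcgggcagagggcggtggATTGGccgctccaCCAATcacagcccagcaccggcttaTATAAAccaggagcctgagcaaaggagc
H4c9: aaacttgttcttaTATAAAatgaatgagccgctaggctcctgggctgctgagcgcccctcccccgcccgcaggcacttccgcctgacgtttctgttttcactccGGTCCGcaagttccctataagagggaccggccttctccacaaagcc
H2bc12: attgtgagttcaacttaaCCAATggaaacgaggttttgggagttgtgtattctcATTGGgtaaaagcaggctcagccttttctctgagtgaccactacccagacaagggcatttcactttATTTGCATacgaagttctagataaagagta
H3c2: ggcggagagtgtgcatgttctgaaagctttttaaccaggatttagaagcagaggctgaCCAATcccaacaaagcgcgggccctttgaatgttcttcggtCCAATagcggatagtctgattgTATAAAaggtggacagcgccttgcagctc
H2aw: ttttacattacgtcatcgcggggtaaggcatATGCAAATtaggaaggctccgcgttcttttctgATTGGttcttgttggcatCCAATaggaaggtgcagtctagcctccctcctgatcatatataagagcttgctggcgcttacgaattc
CCAAT, the letters bound by the factor NF-Y, was found in 18 of 18 H2A, 17 of 17 H2B, 6 of 6 H1 and 8 of 10 H3 cluster promoters, in 3 of 12 H4 promoters and in 10 of 17 variant promoters, against 24.5% of all 32851 promoter entries cut to the same length. TATAAA, the core of the TATA box, was found in 4 of 6 H1, 7 of 18 H2A, 4 of 17 H2B, 4 of 10 H3 and 5 of 12 H4 promoters and in 1 of 17 variant promoters, against 7.57% of all. ATTTGCAT, the octamer bound by Oct-1, was found in 5 of 18 H2A and 6 of 17 H2B promoters and in 1 of 17 variant promoters, and in none of the 6 H1, 10 H3 or 12 H4 promoters, against 0.998% of all. GGTCCG, which is part of the H4 element called site II, was found in 9 of 12 H4, 1 of 17 H2B and 1 of 10 H3 promoters and in 4.42% of all. AAACACAAA, a form of the H1 box, was found in 1 of 6 H1, 1 of 18 H2A and 1 of 17 H2B promoters and in 0.338% of all. Only these exact letters were counted. The H1f5 sequence holds aaacacaat, which differs in the last letter, so the counts do not show that the other H1 promoters lack an H1 box. No motif is contained in another and no matches overlap in the sequences shown, and a match describes the sequence only. Among these promoters, that of H4c9 held TATAAA and GGTCCG but no CCAAT, and those of H2bc12 and H2aw held the octamer beside CCAAT.

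The deposited values were read as log2 and lay between 1.99 and 13.43. A value of 5.475 (the median over all values) or higher is called above the floor. LSK markers were above the floor on all 4 arrays for 9 of 9 measured genes, with list means of 9.46 to 9.86. The means cover unlike differences between genes. From basal to day 8 in Ctrl, Flt3 (1.57) and Cd34 (1.03) were at least 2-fold higher. Procr (-1.64) and Gata2 (-1.02) were at least 2-fold lower. In AMKO 0 of the 9 differed 2-fold. The Ctrl day 8 array stood apart in markers of other blood cells. Its mean over 12 neutrophil markers was 10.78, with 12 of 12 above the floor, against 5.03 to 5.23 on the other 3 arrays. For 8 granulocyte-monocyte progenitor markers the mean was 9.03 (8 of 8 above the floor) against 5.62 to 5.99. For 10 B-lineage markers it was 7.69 (8 of 10) against 5.47 to 5.56, and for 6 erythroid markers 7.37 (6 of 6) against 5.61 to 5.90. The 6 T-lineage markers differed little, with 6.00 (3 of 6) against 5.54 to 5.67 (1 of 6). Of these only Cd3g was at least 2-fold higher than in Ctrl basal (1.52), and Lat was lower (-0.73). The Ctrl basal array stood apart in 9 skeletal muscle markers, with a mean of 8.74 against 5.64 to 6.04 and 9 of 9 above the floor against 4 to 7. Means over 4 megakaryocyte markers were 9.69 (Ctrl) and 9.91 (AMKO) before 5FU, then 8.81 and 8.89. Between the 2 AMKO arrays, 2 of 12 neutrophil markers were at least 2-fold higher at day 8 (S100a8 by 1.21 and Cxcr2 by 1.12), and 3 of 4 megakaryocyte markers, 1 of 6 erythroid and 1 of 9 muscle markers were at least 2-fold lower. The part of these cell types in the histone values was not tested.

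Histone probe sets were mostly higher at day 8 after 5FU than at basal in both genotypes. In Ctrl, 18 of 84 members were at least 2-fold higher (21.4%, against 2.91% of all probe sets) and 1 was at least 2-fold lower (1.19%, against 3.05%). In AMKO, 24 were at least 2-fold higher (28.6%, against 2.75%) and 1 was at least 2-fold lower (1.19%, against 2.6%); the lower one was the same in both (1.27% of all probe sets were lower in both). On the higher side, 14 members were at least 2-fold higher in both genotypes (16.7%, against 0.975%), and 54 were above 0 in both (64.3%, against 28.4%). The median log2 difference of the 84 was 0.385 in Ctrl and 0.515 in AMKO, against -0.01 and -0.04 over all probe sets. In sorted bulk RNA, more cells of a type and more RNA per cell cannot be told apart.

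Signal limited what part of the family could be read. On at least 1 array, 56 members were above the floor, 40 of them on all 4, 9 on day 8 arrays only and 1 on basal arrays only. Of these 56, 15 were at least 2-fold higher in Ctrl (4.83% of all probe sets above the floor were) and 24 in AMKO (4.69%), counts to which the floor itself contributes. The other 28 were below it on every array. Of the 14 members at least 2-fold higher in both genotypes, 10 were of 1 gene, and 6 lay below the floor on at least 1 basal array. For those 6 the fold rests on a basal value near background and its size is uncertain. The 13 members with a mean of 10 or more over the arrays were without exception higher at day 8. Their differences were 0.32 to 1.40 in Ctrl (median 0.74) and 0.42 to 1.74 in AMKO (median 0.71). These 13 include the pairs with equal values led by H2ac18 and by H2ac23, and several name the same genes, so they are fewer separate readings. How many of all probe sets this bright were higher was not counted. The 27 members with a mean under 5 had medians of 0.09 and 0.01.

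**Figure D1:**
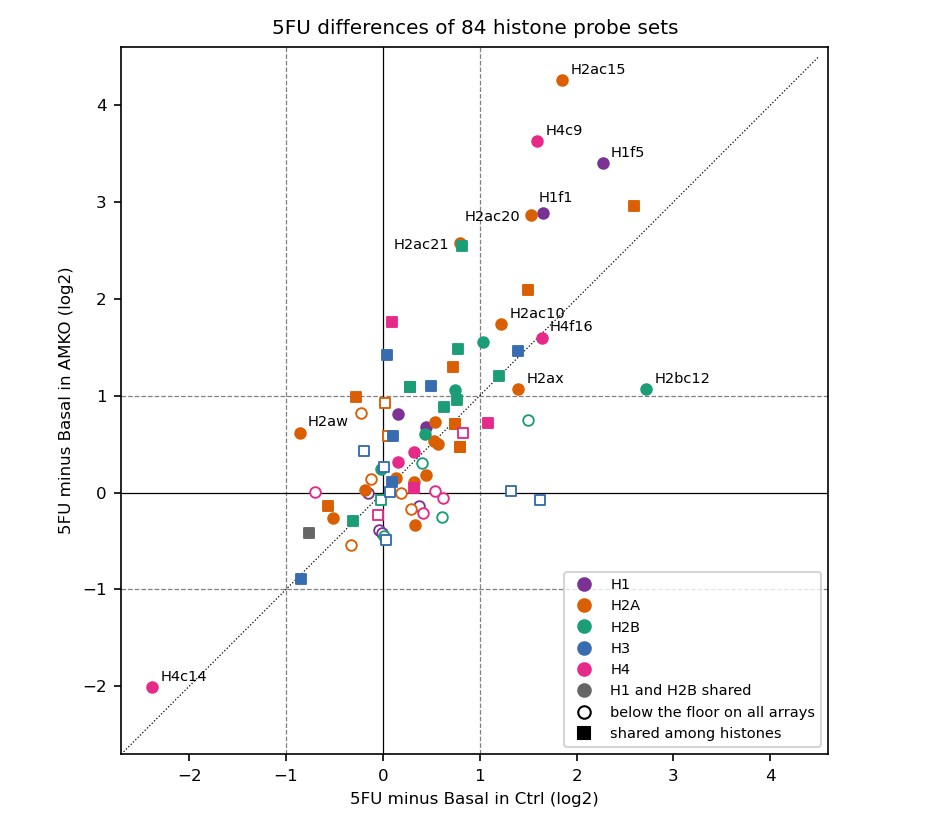
Each point is 1 of the 84 histone probe sets, placed by its log2 difference between day 8 after 5FU and basal in Ctrl (horizontal) and in AMKO (vertical); colours mark classes, squares probe sets shared among histones, open symbols those below the floor on all arrays, and the dashed lines 2-fold. The 14 points beyond 2-fold in the upper right corner have H2ac15 at the top (1.85 and 4.26), and H4c14 stands alone at the lower left (-2.38 and -2.01).

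Linker histone H1 was led by a pair of genes. H1f5, the gene for H1.5, read 5.08 in Ctrl basal, 4.12 in AMKO basal, 7.35 in Ctrl day 8 and 7.52 in AMKO day 8. Both basal values were below the floor and both day 8 values well above it, with log2 differences of 2.27 in Ctrl and 3.40 in AMKO. H1f1, the gene for H1.1, read 5.72, 4.56, 7.37 and 7.45 in the same order. Its day 8 values were close to each other, and the differences were 1.65 and 2.89. H1f2, the gene for H1.2, read 7.36, 7.36, 7.52 and 8.17, so that only the AMKO day 8 array stood clearly above the rest. H1f3 (4.81 to 5.34) and the testis gene H1f6 (3.53 to 3.90) were below the floor throughout. Over the 5 H1 cluster members the median differences were 0.37 in Ctrl and 0.81 in AMKO, and over the 3 above the floor 1.65 and 2.89. H1f4 was read only together with the H2B genes H2bc4, H2bc6 and H2bc8, on a probe set that was lower at day 8 (7.85, 8.10, 7.09 and 7.68).

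Among 20 H2A cluster members, 5 were at least 2-fold higher in Ctrl and 7 in AMKO, against 2.91% and 2.75% of all probe sets. The medians of these 20 were 0.73 and 0.71. H2ac15 had the largest AMKO difference of the family, from 6.23 in Ctrl basal and 4.35 in AMKO basal to 8.08 in Ctrl day 8 and 8.61 in AMKO day 8. Its basal arrays differed more from each other than its day 8 arrays, and the AMKO difference of 4.26 starts from a value below the floor. H2ac20 read 6.42, 5.58, 7.95 and 8.45, with differences of 1.53 and 2.87. H2ac21 read 7.21, 6.61, 8.01 and 9.19, with differences of 0.80 and 2.58, while a second H2ac21 probe set stayed between 3.88 and 4.11, below the floor. The 2 probe sets of this gene therefore gave unlike readings. H2ac10 was bright throughout, at 9.63, 9.54, 10.85 and 11.28, and both day 8 arrays lay above both basal arrays.

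Shared H2A probe sets spanned a wide range although they name largely the same 10 Hist1 genes. The one led by H2ac11 read 3.67, 3.38, 6.26 and 6.34, with differences of 2.59 and 2.96, and the one led by H2ac4 read 5.40, 4.70, 6.90 and 6.79. The one led by H2ac22 was bright and higher at day 8, at 10.76, 10.28, 11.48 and 11.58, whereas that led by H2ac6 was lower, at 8.13, 7.88, 7.56 and 7.74. Which of the 10 genes gave each reading cannot be told from these values. The brightest readings of the family came from a pair of probe sets with equal values for H2ac18, H2ac19 and H2ac20 of the Hist2 cluster, at 12.60, 12.67, 13.34 and 13.38. In contrast H2aw, the single H2A gene of the Hist3 cluster, read 6.89 in Ctrl basal, 7.59 in AMKO basal, 6.03 in Ctrl day 8 and 8.21 in AMKO day 8. It was lower at day 8 in Ctrl (-0.86) and higher in AMKO (0.62).

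For H2B, 4 of 18 members were at least 2-fold higher in Ctrl and 8 in AMKO, against 2.91% and 2.75% of all probe sets. The medians of these 18 were 0.62 and 0.92. H2bc12 read 6.11 in Ctrl basal, 7.13 in AMKO basal, 8.83 in Ctrl day 8 and 8.20 in AMKO day 8. Its Ctrl difference of 2.72 was the largest of the 84, and unlike most members it had a smaller difference in AMKO (1.07). H2bc22 read 4.63, 4.62, 5.66 and 6.17, below the floor at basal and above it at day 8. H2bc18 read 7.57, 7.95, 8.31 and 9.01, with differences of 0.74 and 1.06. The lowest of the single-gene probe sets above the floor was H2bc21, at 6.89, 6.79, 6.87 and 7.03, which spanned 4 nearly equal values. A probe set shared by H2bc4, H2bc6 and H2bc8 and led by H2bc4 read 7.97, 7.48, 8.79 and 10.03, but another of the same 3 genes, led by H2bc8, read 9.69, 10.10, 9.38 and 9.81. The former was higher at day 8 in both genotypes and the latter lower in both. The H2B gene of the Hist3 cluster, H2bu2, read with a pseudogene, gave 6.41, 7.16, 7.61 and 8.36 and the same difference of 1.20 in both genotypes.

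**Figure D2:**
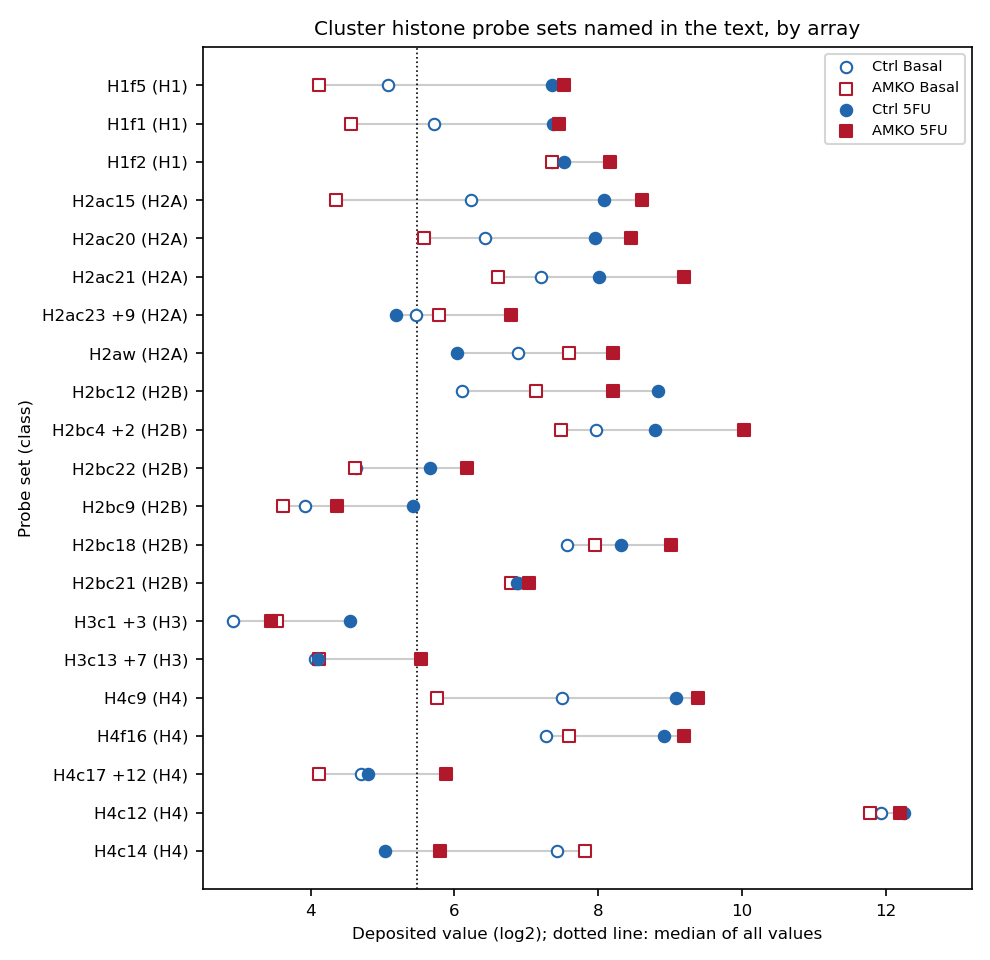
Deposited log2 values (horizontal axis) of the cluster histone probe sets named in the text (rows, with their class), with open symbols for basal and filled symbols for day 8 after 5FU, blue circles for Ctrl and red squares for AMKO, and the median of all values as a dotted line; +9 and the like give the further genes on a shared probe set. In the rows of H2ac15, H4c9, H1f5 and H1f1 the open red square lies far to the left (4.35, 5.76, 4.12 and 4.56) while the filled symbols lie close together, and in the row of H4c14 the order of basal and day 8 is turned.

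No H3 cluster gene had a probe set of its own, and the 12 H3 members, each shared by 4 or 8 genes, had median differences of 0.08 (Ctrl) and 0.185 (AMKO). Only 6 of the 12 were above the floor on any array, and the medians of these 6 were 0.095 and 0.84. At least 2-fold higher were 1 in Ctrl and 3 in AMKO, against 4.83% and 4.69% of all probe sets above the floor. Among these 6, a probe set led by H3c13 passed only through its AMKO day 8 value of 5.54. The floor itself thus contributes to the AMKO median and count. Only 1 H3 member was at least 2-fold higher in both genotypes. It read 5.85 in Ctrl basal, 5.71 in AMKO basal, 7.25 in Ctrl day 8 and 7.17 in AMKO day 8, for 8 genes that include H3c2. Another probe set of the same 8 genes gave 5.97, 6.00, 5.12 and 5.11, lower at day 8 by nearly the same amount in both genotypes. Yet another, led by H3c15, read 7.79, 7.78, 7.88 and 7.89, with almost no difference between arrays. The probe set led by H3c10 for a group of 4 genes read 6.63, 6.49, 7.13 and 7.59. Outside the members, the 7 probe sets of H3.3 had 5FU differences of -0.10 to 0.38 in Ctrl and -0.52 to 0.66 in AMKO.

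H4 held the lowest member of the family and some of the highest. H4c9 read 7.49 in Ctrl basal, 5.76 in AMKO basal, 9.08 in Ctrl day 8 and 9.39 in AMKO day 8, with differences of 1.59 and 3.63. H4f16, the H4 gene of the Hist4 locus, read 7.28, 7.59, 8.92 and 9.19 on one probe set, with similar differences of 1.64 and 1.60, and 5.60, 5.83, 5.76 and 6.15 on another, with 0.16 and 0.32. Its 2 probe sets therefore did not give the same size of difference. H4c12 was bright with small differences, at 11.94, 11.78, 12.26 and 12.20. H4c14, the H4 gene of the Hist2 cluster, read 7.42, 7.81, 5.04 and 5.80. Both day 8 values lay below both basal values, the Ctrl one also below the floor, with differences of -2.38 and -2.01, and it was the only member at least 2-fold lower in either genotype. Over 14 H4 members the medians were 0.365 in Ctrl and 0.185 in AMKO. Over the 8 above the floor they were 0.32 and 0.57, so the order of the genotypes turned with the floor. Among these 8, a probe set of 13 genes led by H4c17 passed only through its AMKO day 8 value of 5.88. The floor itself thus contributes to the AMKO median.

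The 14 variant members had medians of 0.23 (Ctrl) and 0.145 (AMKO), against 0.425 and 0.59 over the 70 cluster members. Over the 9 above the floor the variant medians were 0.45 and 0.50, against 0.72 and 0.99 over 47 cluster members. These 9 variant members were above the floor on all 4 arrays. The members above it on day 8 arrays only were all of cluster genes, so the floor itself contributes to the cluster medians. Not every cluster class differed more, since the Ctrl medians above the floor were 0.095 for H3 and 0.32 for H4. Of the 14 variant members, 1 was at least 2-fold higher, in both genotypes (0.975% of all probe sets were). That one was H2ax, the variant phosphorylated at DNA breaks, at 10.35 in Ctrl basal, 10.76 in AMKO basal, 11.75 in Ctrl day 8 and 11.83 in AMKO day 8. The day 8 arrays were above the basal arrays in both genotypes, by 1.40 and 1.07. H2az1 (6.71, 6.84, 7.28 and 7.34) and H2az2 (9.83, 9.74, 10.37 and 10.47), which encode H2A.Z, were higher by 0.50 to 0.73. Macroh2a1 read 10.80 on both basal arrays and 11.33 on both day 8 arrays, and the linker variant H1f10 read 7.17, 7.01, 7.62 and 7.69. In these 4 genes every day 8 value lay above every basal value. H2aj (7.59 to 7.84), H2ab2 (6.31 to 6.74), H2ab1 (6.18 to 6.57 on the probe set above the floor) and H2al2a (5.84 to 6.51) had differences under 2-fold, and H2al2a was lower at day 8 in both genotypes. The 5 variant members below the floor on all arrays included Macroh2a2 and the oocyte linker histone H1f8.

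**Figure D3:**
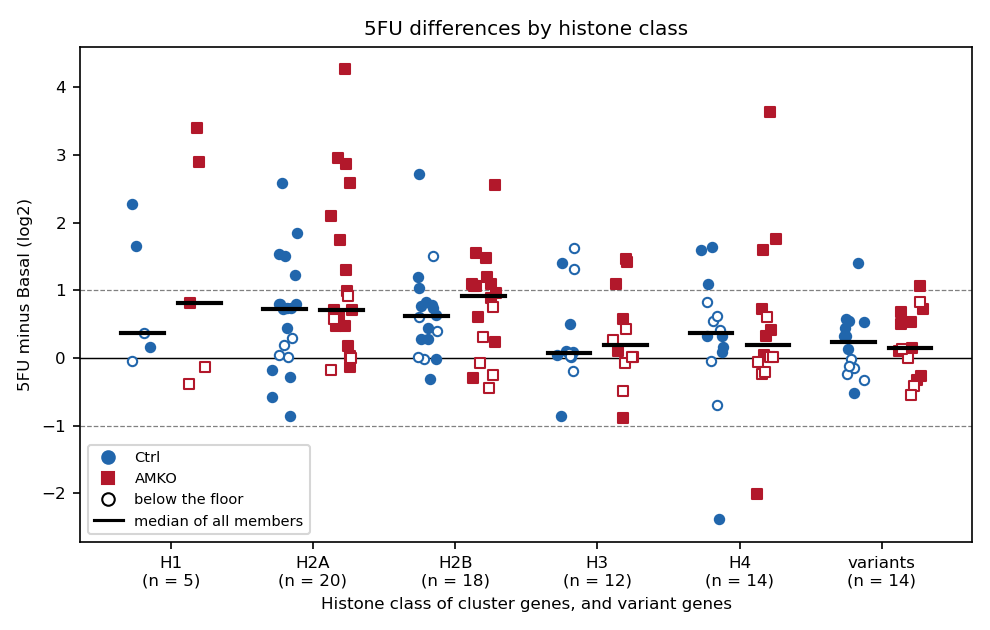
Log2 difference between day 8 after 5FU and basal (vertical) of every member by class of cluster gene and for variant genes, with Ctrl in blue circles and AMKO in red squares, open symbols for members below the floor on all arrays and bars for class medians; the probe set shared by H1f4 and H2B genes is not drawn. The H2A and H2B bars lie highest in Ctrl (0.73 and 0.62), and the H3 bars lie at 0.08 and 0.185, with 6 of the 12 H3 members drawn open.

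By position, the 45 members of the Hist1 cluster alone had median differences of 0.54 (Ctrl) and 0.60 (AMKO). Of these 45, 13 and 15 were at least 2-fold higher, against 2.91% and 2.75% of all probe sets. The 8 members of Hist2 alone had 0.74 and 0.71, with H4c14 lower. Among cluster members, the 32 of 1 gene had medians of 0.445 and 0.37 and the 38 shared ones 0.30 and 0.66. In RefSeq, 10 pairs of H2A and H2B genes start in opposite directions from a common promoter, 164 to 281 bases apart, and only 2 pairs had single-gene probe sets for both members. H2ac12 (0.29 and -0.17), below the floor on all arrays, starts 178 bases from H2bc12 (2.72 and 1.07). H2bc1 (0.61 and -0.25), also below the floor, is the partner of H2ac1 (-0.18 and 0.03).

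The 5FU difference averaged over genotypes was tested with limma on the 19112 probe sets above the floor, in an additive model on all 4 arrays. No probe set of the 19112 passed an adjusted p of 0.05 (0.0% called), so 0 of 56 histone members did, with 36 members (33 of them higher) at an unadjusted p under 0.05, against 25.8% of all. This model has 1 residual degree of freedom, and its residual is the difference between the genotypes' 5FU differences. The error that limma used combines this residual with a prior fitted over all tested probe sets, which carries 2.52 degrees of freedom. Neither part measures variation between replicate arrays. Members with differences of like size in both genotypes came closest, among them H4c14 (-2.195 ± 0.174 SE, limma adjusted p = 0.0909), H4f16 (1.62 ± 0.134 SE, limma adjusted p = 0.0909) and H2ax (1.235 ± 0.129 SE, limma adjusted p = 0.0912). Shared probe sets were also among the closest, such as that led by H2ac11 (2.775 ± 0.251 SE, limma adjusted p = 0.0909). Other genes described here had larger p-values, with 1.48 ± 0.176 SE for H2ac10 and 2.835 ± 0.34 SE for H1f5 (limma adjusted p = 0.0919 for both), 2.27 ± 0.362 SE for H1f1 (limma adjusted p = 0.0985) and 2.20 ± 0.382 SE for H2ac20 (limma adjusted p = 0.102). The calls depended on the settings, for all probe sets as for histones. After quantile normalization 13 of 57 members passed (3.53% of all probe sets tested did), with a floor at the 75th percentile of all values 12 of 37 (11.2%), and with robust estimation 15 of 56 (5.26%).

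Between genotypes at basal, 1 of 84 members was at least 2-fold higher in AMKO (1.19%, against 0.357% of all probe sets) and 3 were at least 2-fold lower (3.57%, against 0.827%). The higher one was H2bc12 (1.02), which with each array centred on its median no longer reached 2-fold. The lower ones were H2ac15 (-1.88), H4c9 (-1.73) and H1f1 (-1.16), and H1f5 (-0.96) and H2ac20 (-0.84) came next among the named genes. These 5 are among the members with the largest 5FU differences, and their values on the 2 day 8 arrays differed by only 0.08 to 0.53. The Ctrl basal array is the one with high muscle markers, and its part in these 5 differences was not tested. The median over the 84 was 0.04, the same as over all probe sets.

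At day 8, 6 members were at least 2-fold higher in AMKO than in Ctrl (7.14%, against 0.563%) and 2 were at least 2-fold lower (2.38%, against 1.95%). H2aw was the highest (2.18), followed by a shared H2A probe set led by H2ac23 (1.60; 5.46, 5.79, 5.18 and 6.78), a shared H3 probe set led by H3c13 (1.44; 4.06, 4.12, 4.10 and 5.54), the H2B probe set led by H2bc4 (1.24), H2ac21 (1.18) and an H4 probe set of 13 genes led by H4c17 (1.09; 4.70, 4.12, 4.79 and 5.88). In each of the 6 the AMKO day 8 array had the highest of the 4 values, but in the 3 led by H2ac23, by H3c13 and by H4c17 the Ctrl day 8 value was below the floor, so the size of the fold is uncertain. The 2 lower members, H2bc9 (-1.06; 3.92, 3.61, 5.42 and 4.36) and an H3 probe set led by H3c1 (-1.09; 2.92, 3.53, 4.54 and 3.45), were below the floor on all arrays. The day 8 comparison includes the Ctrl array with high neutrophil and B-lineage markers, whose part in it was not tested. The 2 Hist3 neighbours H2aw and H2bu2 were both higher in AMKO at both times, by 0.70 and 2.18 and by 0.75 and 0.75. Averaged over times, the limma model called none of the 19112 probe sets (0.0%) and 0 of 56 members, with 6 members at an unadjusted p under 0.05, against 3.54% of all, and the H2bu2 probe set had 0.75 ± 0.136 SE (limma adjusted p = 0.903).

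**Figure D4:**
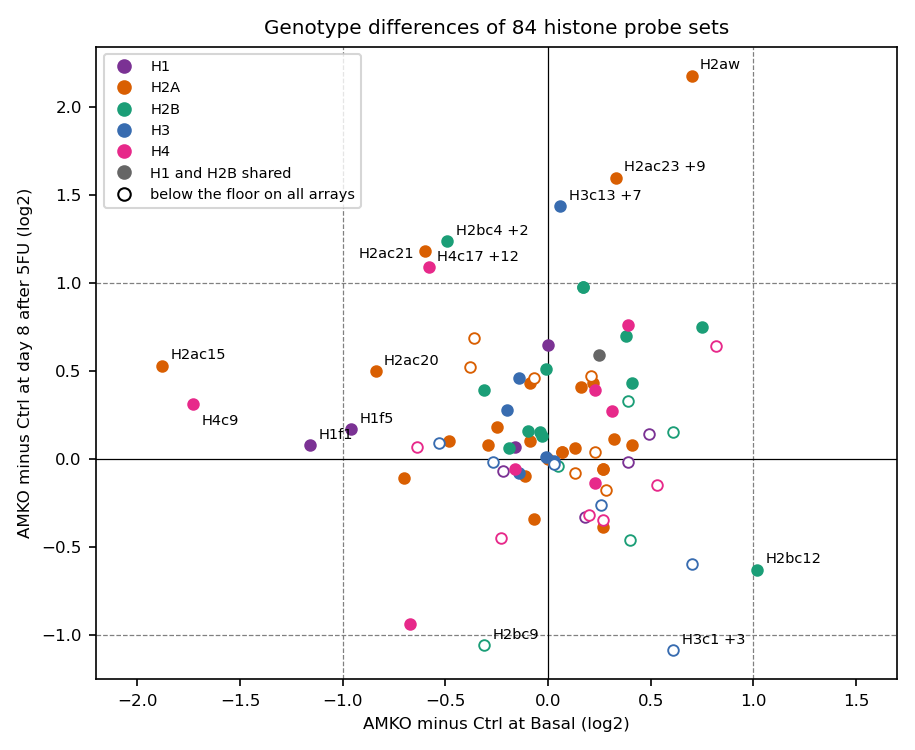
Each point is 1 of the 84 histone probe sets, placed by its AMKO minus Ctrl log2 difference at basal (horizontal) and at day 8 after 5FU (vertical), with colours for classes, open circles for members below the floor on all arrays and dashed lines at 2-fold. H2ac15, H4c9 and H1f1 lie left of the lower 2-fold line for basal, at 0.53, 0.31 and 0.08 for day 8, and H2aw lies at the top (0.70 and 2.18).

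The larger AMKO differences of H2ac15, H4c9, H1f5, H1f1 and H2ac20 went with lower AMKO basal values. These values share the AMKO basal array. Of the 14 members at least 2-fold higher in both genotypes, 10 were lower in AMKO than in Ctrl at basal (71.4%, against 59.5% of the 336 probe sets that were so), 11 were higher in AMKO at day 8 (78.6%, against 45.8%), and 10 had the larger 5FU difference in AMKO (71.4%, against 53.0%). Over all members 48 of 84 had the larger difference in AMKO (57.1%), against 48.6% of all probe sets. Among members above the floor 40 of 56 did (71.4%), against 10301 of the 19112 probe sets above the floor. The floor itself contributes to these counts, since some members passed it through the AMKO day 8 array alone. The difference between the 5FU differences was not tested, since it is the residual of the model.

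Genes that act with histones were read from 3 lists, with 1 probe set per gene. Among 22180 such genes, 3.32% were at least 2-fold higher in Ctrl, 3.02% in AMKO and 1.24% in both. S phase and DNA replication genes were above 0 in both genotypes in 28 of 28 measured genes (30.8% of the 22180 were), with median differences of 0.985 and 0.975, and 14, 12 and 10 were at least 2-fold higher in Ctrl, in AMKO and in both. Gins1, a subunit of the replicative helicase, was higher by 1.61 and 1.97, the ribonucleotide reductase subunit Rrm2 by 1.59 and 1.77 and the primase subunit Prim2 by 1.27 and 1.88, and the clamp loader subunit Rfc3 was the lowest (0.52 and 0.40). Differences in this list spanned a narrower range than those of the cluster histones, but the sets compared are unlike. The 28 list genes were read on 1 probe set each and were above the floor on every array. Of the 70 cluster histone probe sets, several name the same genes, and 47 were above the floor on at least 1 array.

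Genes for the synthesis and processing of histone mRNA differed less, with medians of 0.225 and 0.195 over 20 measured genes, 12 of them above 0 in both, and 1, 0 and 0 at least 2-fold higher in Ctrl, in AMKO and in both. Casp8ap2, a component of the histone locus body, read 7.42 in Ctrl basal, 7.57 in AMKO basal, 8.48 in Ctrl day 8 and 8.52 in AMKO day 8. Slbp, which binds the stem-loop of histone mRNAs, read 8.61, 8.70, 9.36 and 9.65, and Eri1, a nuclease that trims them, was higher by 0.79 and 0.78. Npat, the coactivator of cluster histone transcription, read 9.15, 8.78, 8.93 and 9.19, within a narrow range with no common direction. Hinfp, a factor of H4 promoters, was the lowest (-0.12 and -0.52).

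Histone chaperones and assembly factors had medians of 0.36 and 0.57 over 23 measured genes, 18 above 0 in both, and 6, 5 and 4 at least 2-fold higher in Ctrl, in AMKO and in both. Nasp, a chaperone of H3 and H4, read 6.52, 6.65, 8.12 and 8.31. Anp32e, a chaperone of H2A.Z, was higher by 1.57 and 1.69, Dnajc9 by 1.31 and 1.91 and Asf1b by 1.11 and 0.88. The CAF-1 subunits Chaf1a (0.66 and 0.56) and Chaf1b (-0.06 and 0.57) had smaller differences, and Srcap, which exchanges H2A.Z, was the lowest (-0.09 and -0.33).

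**Figure D5:**
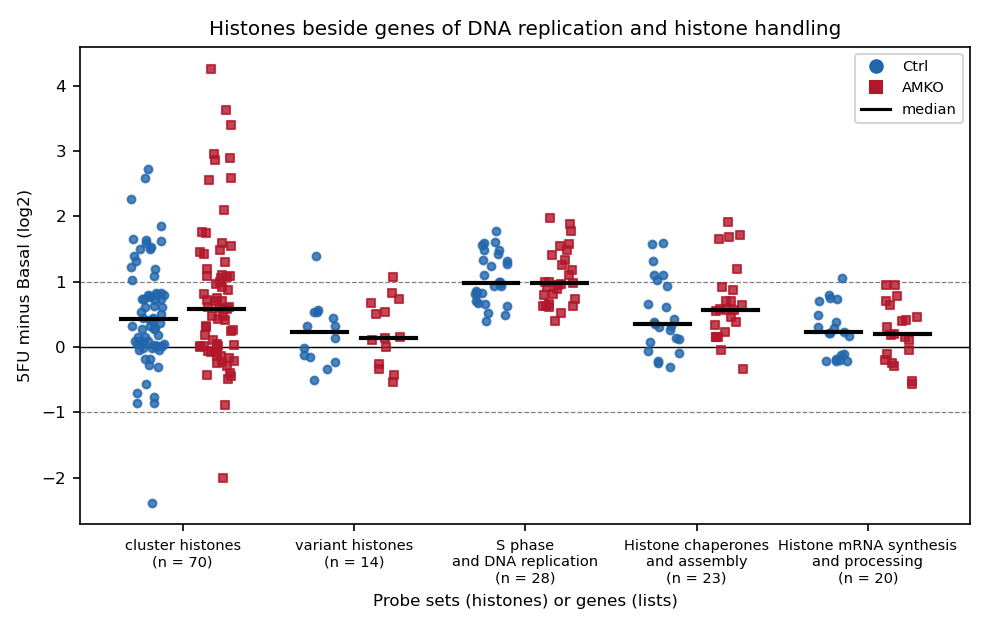
Log2 difference between day 8 after 5FU and basal (vertical) of cluster histone probe sets, variant histone probe sets and the genes of 3 lists, with Ctrl in blue circles, AMKO in red squares, medians as bars and 2-fold as dashed lines. All 28 replication genes lie above 0 between 0.40 and 1.97, whereas the 70 cluster histone probe sets reach from -2.38 to 4.26. The replication genes are all above the floor, as are 47 of the 70 cluster probe sets.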

How the data were processed

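Total RNA of sorted LSK cells was labelled as biotinylated cRNA by the standard Affymetrix procedure, per the labels' protocols; which primer was used, and so how RNAs without a poly(A) tail were copied, is not given in the sources used here. The authors deposited 1 log2 value per probe set and array; the log base was read from the range of the values, and how background was corrected and arrays were normalized is likewise not given. No further scaling was applied. Array medians were 5.47 to 5.55 at basal and 5.43 to 5.44 at day 8. Precision is limited by the number of arrays.

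Platform symbols were updated through Entrez identifiers with a RefSeq table (GRCm38.p6). Of 34472 probe sets, 23521 were paired with 1 gene, 1814 with several and 9137 with none. Single-array log2 differences were counted at 2-fold. Averaged effects were estimated by limma 3.58.1 under R 4.3.3 (eBayes with trend, additive genotype and treatment, Benjamini-Hochberg adjustment, two-sided). The fit was also run on simulated additive data with the same spread for every probe set. That run checks the code and does not show how the fit performs on these arrays. For lists, the brightest probe set of a gene was used.

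Named with all values were, per class of cluster genes, the 3 highest and the lowest single-gene members above the floor by mean 5FU difference, every variant gene above the floor and every member 2-fold different between genotypes; other members named were chosen after their values were seen. In the lists, the 3 highest, the lowest and 7 fixed genes were named. Members, lists and rules were chosen with earlier results of these data known. Alternatives were quantile normalization, median centring, other floors and fold sizes, single-gene members only, limma with no trend or robust, arrays left out in turn and, added after seeing the data, a floor on the mean, equal probe sets counted once and cluster genes only.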

Additional observations from a re-analysis of the deposited data

Results flagged for a closer look

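H2aw, the H2A gene of the Hist3 cluster, differed in opposite directions after 5FU in the 2 genotypes. Its day 8 minus basal log2 difference was -0.86 in Ctrl and 0.62 in AMKO, each more than 1.5-fold. With 1 array per group this difference between genotypes was not tested. The Ctrl day 8 array, on which H2aw was lowest, is the one with high markers of other blood cells, and the part of these in the value was not tested. A sample that stands apart within a group could not be looked for with 1 array per group.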

How the results depend on the processing

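These values are of the members above the floor. No value that was at least 0.1 from 0 turned direction; the basal genotype median, -0.01, was 0.04 with no floor and 0.0 after quantile normalization or with the floor on the mean. Under the first set of alternatives, 72 values stayed and 24 moved, by over 0.1 for a median or 1.5 times for a count; of those added later 35 stayed and 3 moved. The median 5FU difference, 0.535 in Ctrl and 0.77 in AMKO, became 0.385 and 0.515 with no floor, 0.72 and 0.88 with a floor at the 75th percentile, 0.72 and 0.99 without variant genes, and 0.92 in AMKO after centring. The day 8 genotype median, 0.165, became 0.28 without variant genes. Members at least 2-fold higher after 5FU in Ctrl were 15, and in AMKO 24, or 12 by single-gene probe sets alone. In parentheses are shares of all probe sets above the floor. At 1.5-fold, 26 were higher (11.6%) and 4 lower (12.7%) in Ctrl and 2 lower in AMKO (12.1%). At 3-fold, 7 were higher in Ctrl (2.0%) and 12 in AMKO (1.09%). Between genotypes at basal, 3 were higher (3.2%) and 8 lower (4.75%) at 1.5-fold, and 0 higher at 3-fold (0.0733%) or after centring. At day 8, 13 were higher (4.41%) and 2 lower (6.23%) at 1.5-fold, 2 higher at 3-fold (0.194%), 2 by single-gene probe sets alone and 3 with a floor at the 75th percentile, and 2 were lower with no floor. The count of members limma called for 5FU went from 0 to 13 after quantile normalization (673 of all 19054 tested), 12 with the 75th percentile floor (1142 of 10191) and 15 with robust estimation (1006 of 19112). Fewer probe sets were tested under the higher floor; the other causes were not tested. With an array left out, the fit had treatment or genotype as its only term, and 1 arm held a single array that is assumed to vary like the other arm. These fits called 0 to 0 members, for 5FU and for genotype, and 256 probe sets for 5FU without the AMKO day 8 array; since the fit to all arrays also called none, they say nothing about stability. No paired analysis was possible because each group has 1 array and the labels carry no replicate numbers.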
